A study of Mus musculus with 8 samples.

Results

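The subject of this report is a set of 33 genes of the hypoxia response and of glycolysis, followed in 8 mammary tumours of mice. The genes were given by symbol, and every probe set annotated to 1 of these symbols only was taken. Of the 33 genes, 31 had such a probe set, with 67 probe sets in all, out of 18193 genes that could be named. Gpi1 and Eno1 had none and are not analysed here. The tumours came from female FVB/N-Tg(MMTV-PyVT)634Mul/J mice, and all samples shared the genotype MMTV-PyMT. In this line the mouse mammary tumour virus promoter drives the polyoma virus middle T antigen in the mammary epithelium. Of the 8 samples, 4 were from mice given SKI-606 (bosutinib) by oral gavage at 100 mg/kg and 4 from mice given vehicle. SKI-606 inhibits the Src and Abl families of tyrosine kinases, and the series asks about differentiation of the tumours. Neither the mice's ages nor the number of doses is stated in the labels. RNA of each tumour sample was hybridised to 1 Affymetrix array, and precision is limited by the number of arrays. Nothing in the labels ties a sample to a named animal, and a p-value below therefore reflects the spread among these 8 samples alone, which may be technical in part.

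Values of single samples are normalized signals, in the arbitrary units of the array, and samples are always listed from 1 to 4 within a group. Fold changes are differences of log2(signal + 16), SKI-606 minus vehicle, with standard errors from limma and 4 samples in each group. This scale understates differences of dim genes. The 13 luminal mammary markers had a summed signal of 48533 to 55795 in SKI-606 samples and 44640 to 58339 in vehicle samples. This sum leans on bright genes, such as Csn3 with a mean signal of 11583, and does not by itself establish tissue identity. Single markers varied more, as Csn2 ran from 352 in vehicle sample 2 to 9390 in SKI-606 sample 2. Before any comparison, 3 samples stood apart. Over 14 squamous keratin and cornified envelope genes, the mean log2 value was 9.08 and 9.20 in samples 1 and 4 of the SKI-606 group and 9.04 in vehicle sample 3, while the other 5 reached at most 6.15. The same 3 samples had means of 9.71, 10.06 and 8.05 over 9 hair keratin genes, against at most 4.86 elsewhere. These are called the keratin-high samples below. For several genes, values without them stand beside the result.

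In mammalian cells with enough oxygen, the prolyl hydroxylases of the Egln family mark the alpha subunits Hif1a and Epas1 for degradation. When oxygen is low the subunits persist and, with Arnt, bind a short DNA core in or near their target genes. Targets include Vegfa, which drives growth of blood vessels, and much of the glycolytic pathway, and Egln3 is itself a target. Because this control acts mostly on protein stability, the mRNA of Hif1a need not follow oxygen, whereas the mRNA of its targets is commonly read as the response. Fast-growing mammary tumours often hold poorly perfused regions, and tumour cells often make lactate from glucose even with oxygen present.

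Of the 31 hypoxia and glycolysis genes, 0 passed the test between SKI-606 and vehicle tumours. The median log2 fold change of the 31 genes was -0.085, against -0.020 over all 18193 genes, with 12 genes above 0 and 19 below, where 47.0% of all genes were above 0. Among the regulators, Epas1 was at 0.60 ± 0.22 and Egln3 at -1.02 ± 0.43. Among the metabolic enzymes, the lactate dehydrogenase gene Ldhb was at -0.51 ± 0.17, with 4 probe sets that gave nearly the same value, while its partner Ldha was at -0.01 ± 0.17. Vehicle sample 3 held the highest value of 16 of the 31 genes.

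At an adjusted p under 0.05 in limma, 0 of the 31 genes passed, where the share over all genes was 0.0%, and the smallest adjusted p of any member probe set was 0.558. At an unadjusted p under 0.05, 2 members were higher (Epas1 and Eno2), or 6.45% of 31, against 6.09% of all genes, and 2 were lower (Egln3 and Ldhb), also 6.45%, against 4.32%. The members' counts, at 2 genes each way, were close to the background. No representative probe set had groups that did not overlap, while 2.39% of all genes lay wholly higher and 2.03% wholly lower. Over the 67 probe sets, 3 were higher at an unadjusted p under 0.05, against 4.59% of all probe sets, and 6 lower, against 3.79%. Of the 3 higher, 2 were of Epas1, and of the 6 lower, 4 were of Ldhb. Probe sets of 1 gene read the same RNA, so these counts are not counts of genes. Of the 67, 1 lay wholly higher (Epas1), against 1.83% of all probe sets, and 3 wholly lower (2 of Ldhb and 1 of Pdk1), against 1.86%. The counts at an unadjusted p under 0.05 moved with single samples. Without vehicle sample 3 they were 4 higher (Epas1, P4ha2, Pfkfb3 and Eno2) and 1 lower (Ldhb), and 20 of 31 genes then lay above 0 in place of 12, with a median of 0.05. Without vehicle sample 4 they were 1 higher and 4 lower, without vehicle sample 2 they were 0 and 2, and without SKI-606 sample 3 they were 3 and 2. Without SKI-606 sample 2 they were 1 and 1, and leaving out SKI-606 sample 1 or 4 gave 0 and 1. With all 3 keratin-high samples left out they were 0 and 0.

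**Figure D1:**
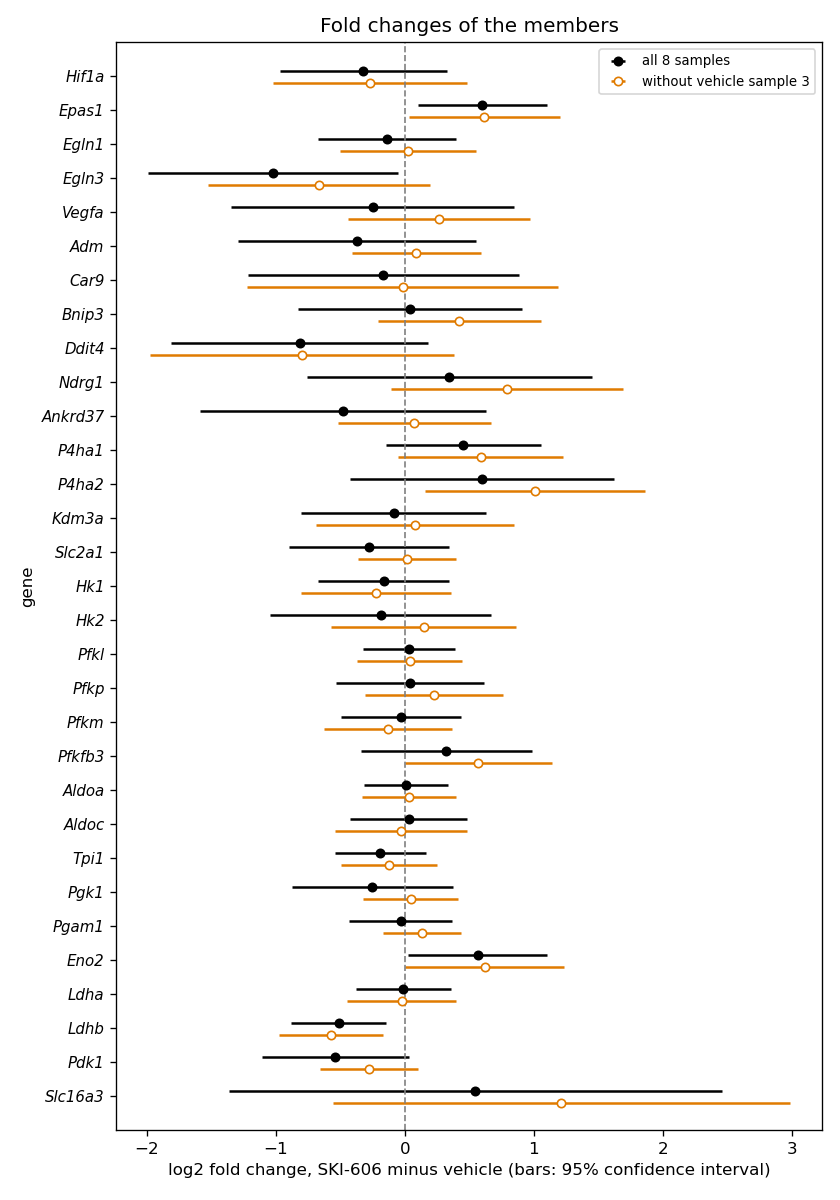
Log2 fold change (SKI-606 minus vehicle, horizontal axis) of each of the 31 genes, with 95% confidence intervals, from all 8 samples (filled) and without vehicle sample 3 (open). From all samples, the intervals of Epas1 and Eno2 lie above 0 and those of Egln3 and Ldhb below it; without vehicle sample 3, 20 genes lie to the right of 0 in place of 12.

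Among the regulators, the oxygen-labile subunit gene Hif1a had signals of 189, 444, 304 and 502 in SKI-606 samples and 428, 506, 477 and 315 in vehicle samples. The groups overlapped over most of their range, with SKI-606 sample 1 lowest of all. The log2 fold change was -0.32 ± 0.29, with a 95% confidence interval of -0.97 to 0.33, and the 3 other probe sets of Hif1a lay between -0.11 and 0.06. Without SKI-606 sample 1 it was -0.06.

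Epas1 encodes the related subunit HIF-2 alpha, which is abundant in endothelial cells. Its signals were 411, 338, 246 and 486 in SKI-606 samples and 281, 173, 238 and 246 in vehicle samples. SKI-606 samples 1, 2 and 4 lay above every vehicle sample, and SKI-606 sample 3 lay within the vehicle range. Its log2 fold change was 0.60 ± 0.22, with an unadjusted p of 0.0237 and an adjusted p of 0.565 in limma. A second, dimmer probe set of Epas1 had 59.1, 48, 67.2 and 46.4 in SKI-606 samples and 39.8, 33, 19.6 and 7 in vehicle samples. In this probe set the groups did not overlap, and its log2 fold change was 0.87 ± 0.26. Endothelial markers lay on the same side, as 11 of 11 had a fold change above 0, against 47.0% of all genes. Of these, 5 were higher at an unadjusted p under 0.05 in limma, against 6.09% of all genes. Their summed signal was 1285 to 2648 in SKI-606 samples and 860 to 1398 in vehicle samples. This was not particular to endothelial markers. Macrophage markers had 11 of 11 above 0 and 5 at that p, and fibroblast markers 11 of 11 and 10. The median log2 fold changes of the 3 lists were 0.65, 0.71 and 0.87. No endothelial marker was at 0 in all samples. In bulk tumour RNA, more cells of a type and more RNA per cell cannot be told apart. The part of endothelial cells, macrophages or fibroblasts in the Epas1 result was not tested. Without the 3 keratin-high samples, Epas1 was at 0.31. Leaving out vehicle sample 2 or SKI-606 sample 1 or 4 gave 0.46 to 0.54, with an unadjusted p of 0.0596 to 0.0705 in limma.

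The oxygen sensor gene Egln1, whose product (PHD2) is the main hydroxylase of Hif1a, had 249, 220.5, 158 and 319 in SKI-606 samples and 216, 262, 362 and 203 in vehicle samples. The groups overlapped throughout, at -0.14 ± 0.24. Egln3 encodes PHD3, a family member that hypoxia strongly induces. Its signals were 298, 318, 794 and 420.1 in SKI-606 samples and 514, 1063, 1843 and 574 in vehicle samples. SKI-606 samples 1, 2 and 4 lay below every vehicle sample, while sample 3 lay between the vehicle samples. Egln3 thus had a log2 fold change of -1.02 ± 0.43, with an unadjusted p of 0.0403 and an adjusted p of 0.584 in limma, and the second Egln3 probe set was at -0.66 ± 0.40. Without vehicle sample 3 the value was -0.67, with an unadjusted p of 0.112 in limma, and without the 3 keratin-high samples it was -0.42. Leaving out vehicle sample 2 or SKI-606 sample 1, 2 or 4 gave -1.02 to -0.86, with an unadjusted p of 0.0722 to 0.102 in limma.

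Among the classic targets, Vegfa had 159, 71.2, 93.1 and 179.5 in SKI-606 samples and 129, 83.1, 449 and 81.6 in vehicle samples. Vehicle sample 3 stood far above the other 7, which formed 1 overlapping range. This gave a log2 fold change of -0.25 ± 0.49, and it was 0.26 without that sample. Adm, which encodes the vasodilator adrenomedullin, had 59.1, 40.5, 35 and 38.9 in SKI-606 samples and 54.5, 26.1, 180.5 and 40.5 in vehicle samples. Again vehicle sample 3 was alone at the top, and the log2 fold change of -0.37 ± 0.41 was 0.09 without it. A second Adm probe set of similar brightness had the opposite sign over all samples, at 0.175 ± 0.558. Ankrd37, a small ankyrin repeat gene known as a sensitive HIF target, had 42.1, 24.9, 36.1 and 47 in SKI-606 samples and 46.5, 17.5, 217 and 44.4 in vehicle samples. The distance from the highest sample to the next was 1.89 on the log2 scale, the widest among the 31 genes, and the fold change was -0.48 ± 0.49.

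Bnip3, whose product promotes removal of mitochondria, had 269, 245, 132 and 338 in SKI-606 samples and 169, 163, 521 and 179.5 in vehicle samples. The 3 other vehicle samples were close together, below 3 of the 4 SKI-606 samples, so that the fold change of 0.04 ± 0.39 became 0.42 without vehicle sample 3. Ndrg1, a stress-response gene, had 2031, 2264, 1018 and 1508 in SKI-606 samples and 1576, 533, 3259 and 972 in vehicle samples. Its vehicle samples held both the highest and the lowest of the 8 values, the fold change was 0.35 ± 0.49, and 5 of 5 probe sets lay above 0, as did 46.3% of all probe sets. Without vehicle sample 2 its value was -0.07, and without vehicle sample 3 it was 0.79.

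Not every target followed vehicle sample 3. Car9, a cell-surface carbonic anhydrase that handles acid, had 100.1, 103, 258 and 66.5 in SKI-606 samples and 44.4, 208, 188 and 164 in vehicle samples, with the highest value in SKI-606 sample 3 and a fold change of -0.17 ± 0.47. Single samples moved Car9, to -0.51 when SKI-606 sample 3 was left out, to -0.60 when vehicle sample 1 was and to 0.03 when vehicle sample 2 was, and it was 0.43 without the 3 keratin-high samples. Ddit4, an inhibitor of mTORC1 that other stresses also induce, was at -0.81 ± 0.44, with its highest signal, 1047, in vehicle sample 2 and its lowest, 166, in SKI-606 sample 2. Without that SKI-606 sample it was at -0.38, without vehicle sample 4 at -1.12 with an unadjusted p of 0.0312 in limma, and without the 3 keratin-high samples at -1.33. The collagen prolyl hydroxylase genes P4ha1 and P4ha2 were at 0.45 ± 0.27 and 0.60 ± 0.46. P4ha2 had 277 and 212 in SKI-606 samples 1 and 4 and 245 in vehicle sample 3, while the other samples had at most 113. Without the 3 keratin-high samples it was at 0.40. Fibroblast markers, whose cells make collagen, were above 0 in 11 of 11 cases, against 47.0% of all genes. Of these, 10 were higher at an unadjusted p under 0.05 in limma, against 6.09% of all genes. Their summed signal was 20000 to 37182 in SKI-606 samples and 15150 to 18953 in vehicle samples, and none was at 0 in all samples. The part of fibroblasts in the P4ha1 and P4ha2 values was not tested. The histone demethylase gene Kdm3a was at -0.09 ± 0.32.

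**Figure D2:**
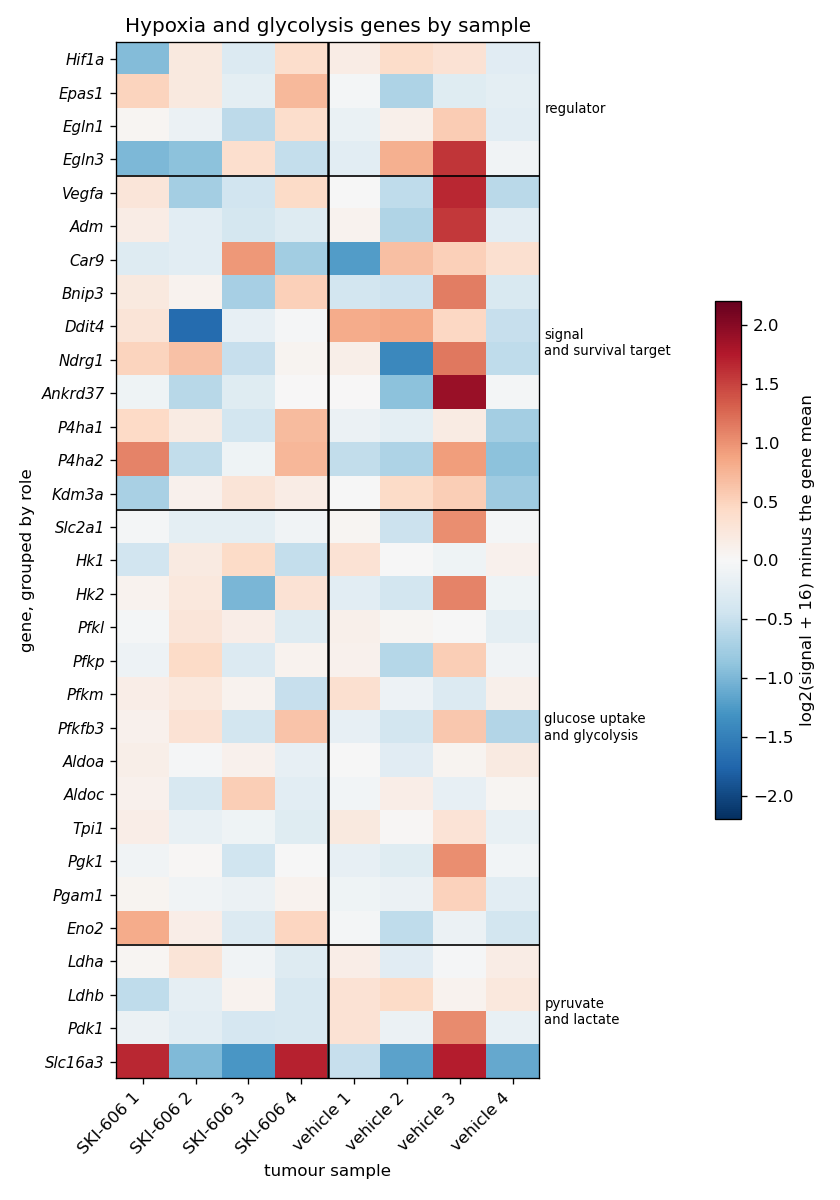
Log2(signal + 16) of each member minus its mean over the 8 samples (colour), with genes in rows grouped by role and samples in columns, SKI-606 left and vehicle right of the line. Vehicle sample 3 is the darkest red column for Egln3, Vegfa, Adm, Bnip3, Ankrd37, Slc2a1, Hk2, Pgk1 and Pdk1, whereas Aldoa, Pfkl and Ldha vary little in any sample.

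Vehicle sample 3 held the highest of the 8 values in 16 of 31 members (51.6%), against 14.5% of all genes. It held the lowest value in 0 members, against 16.4% of all genes. A high share was not particular to the members, as it was 54.5% of 11 proliferation genes and 42.9% of 14 squamous keratin genes. Every other marker list had a lower share, with 0 of 11 endothelial, 0 of 11 macrophage and 0 of 11 fibroblast genes. Of all 18193 genes, 7357 were below 50 in all samples, but 0 members were. Whether the members' share exceeds that of equally bright genes was not tested. The 16 comprised 2 of 4 regulators (Egln1 and Egln3), 6 of 10 signalling and survival targets (Vegfa, Adm, Bnip3, Ndrg1, Ankrd37 and Kdm3a), 6 of 13 genes of glucose uptake and glycolysis (Slc2a1, Hk2, Pfkp, Tpi1, Pgk1 and Pgam1), and 2 of 4 pyruvate and lactate genes (Pdk1 and Slc16a3). These 16 did not all stand out, as the distance to the next sample ran from 0.03 for Slc16a3 to 1.89 for Ankrd37 on the log2 scale. It was also small for Tpi1 (0.08), Kdm3a (0.11), Pfkp (0.13) and Egln1 (0.18). SKI-606 samples 1 to 4 were highest in 2, 2, 3 and 3 members, against 14.2%, 13.6%, 10.5% and 12.5% of all genes. Vehicle samples 1, 2 and 4 were highest in 1, 3 and 1, against 7.46%, 11.3% and 15.9%. Several genes agreed over their probe sets, with vehicle sample 3 highest in 4 of 4 of Pdk1, 3 of 3 of Slc2a1, Pgk1 and Tpi1, and 2 of 2 of Egln1, Egln3, Vegfa and Adm, but in 3 of 5 of Ndrg1. The count depended on the scaling. It was 15 of 31 on the recovered signals before quantile normalization, against 19.7% of all genes, and 9 of 31 on the deposited ratios, against 7.0%, where each array is divided by its median and that of this array was the highest, 23. The 9 were Egln3, Vegfa, Adm, Ndrg1, Ankrd37, Slc2a1, Hk2, Pgk1 and Pdk1. Vehicle sample 3 also had the highest mean log2 value over 11 proliferation genes, 8.96, where the other vehicle samples had 8.51 to 8.86. Its mean was the lowest over 11 endothelial genes, 6.39, but vehicle sample 2 was nearly equal at 6.43. Over 11 macrophage genes it was the lowest as well, 8.22, with vehicle sample 2 next at 8.69. Whether these or the keratin signals have a part in its hypoxia values was not tested, and the pattern was seen in the data and has no test.

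**Figure D3:**
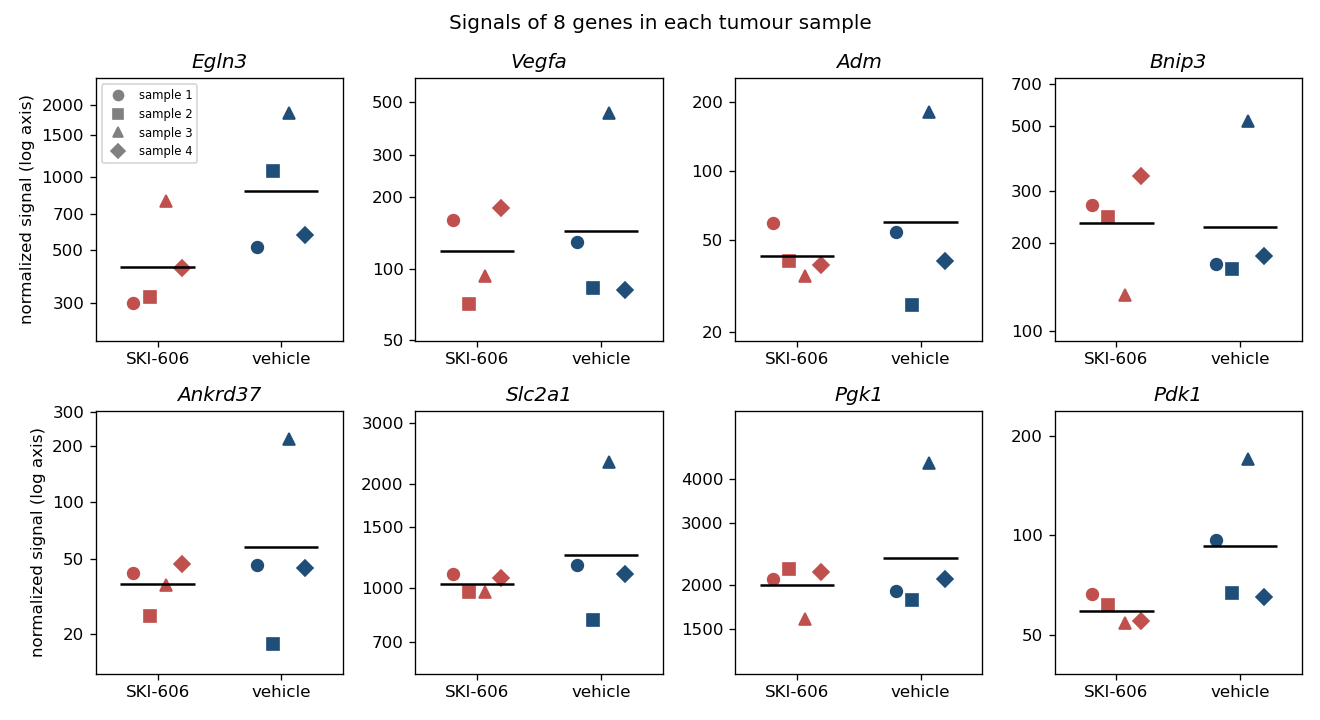
Normalized signals (log axes, a different range in each panel) of 8 genes in SKI-606 (left, red) and vehicle (right, blue) samples, with a symbol for each sample number and a bar at the group mean of log2(signal + 16). The blue triangle, vehicle sample 3, is the highest point in all 8 panels, from 170.2 for Pdk1 to 4451 for Pgk1.

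The start-site regions of 5 genes that were highest in vehicle sample 3 are shown as examples, with the cores to which HIF binds in capitals. A part of HIF in the values of that sample was not tested. The letters searched were ACGTG and GCGTG on either strand, so that CACGT and CACGC mark a core read from the other strand, and a CACGTG is a core on both strands at once. Each line gives the 250 bases before the RefSeq start site, 5′ to 3′ on the gene's own strand, in the GRCm38.p6 build.
Bnip3 (chr7:138909507-138909756, minus strand): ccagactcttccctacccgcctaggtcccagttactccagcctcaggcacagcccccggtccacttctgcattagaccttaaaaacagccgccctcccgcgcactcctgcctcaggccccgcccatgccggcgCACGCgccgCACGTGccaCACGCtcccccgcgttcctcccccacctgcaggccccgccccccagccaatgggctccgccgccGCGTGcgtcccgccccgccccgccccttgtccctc
Ankrd37 (chr8:45999851-46000100, minus strand): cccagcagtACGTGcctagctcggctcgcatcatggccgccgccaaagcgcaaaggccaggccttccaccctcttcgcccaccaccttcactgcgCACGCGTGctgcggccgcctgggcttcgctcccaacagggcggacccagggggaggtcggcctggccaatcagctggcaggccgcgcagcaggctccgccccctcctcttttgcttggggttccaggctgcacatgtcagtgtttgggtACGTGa
Adm (chr7:110627407-110627656, plus strand): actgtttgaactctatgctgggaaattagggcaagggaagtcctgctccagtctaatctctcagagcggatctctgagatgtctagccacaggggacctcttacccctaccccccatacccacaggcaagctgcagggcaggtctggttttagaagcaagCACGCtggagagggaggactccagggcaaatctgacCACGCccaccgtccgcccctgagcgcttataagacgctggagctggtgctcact
Slc2a1 (chr4:119108495-119108744, plus strand): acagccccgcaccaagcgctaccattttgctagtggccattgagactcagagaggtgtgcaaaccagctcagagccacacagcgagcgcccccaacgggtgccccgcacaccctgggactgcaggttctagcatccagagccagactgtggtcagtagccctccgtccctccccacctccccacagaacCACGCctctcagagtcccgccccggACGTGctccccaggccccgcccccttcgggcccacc
Pgk1 (chrX:106186850-106187099, plus strand): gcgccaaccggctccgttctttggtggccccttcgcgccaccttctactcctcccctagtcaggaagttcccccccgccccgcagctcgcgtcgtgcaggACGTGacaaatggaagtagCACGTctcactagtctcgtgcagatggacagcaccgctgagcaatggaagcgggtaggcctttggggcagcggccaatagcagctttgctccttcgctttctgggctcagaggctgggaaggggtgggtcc

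Bnip3 had cores at 4 separate places in this window, the nearest beginning 35 bases before the start site, and Ankrd37 had 3, the nearest 6 bases before it. Adm, Slc2a1 and Pgk1 had 2 places each. These windows were chosen among the richer ones, and genes that peaked in vehicle sample 3 also include Tpi1, with no core, and Egln3, with 1. Of the 31 measured genes, 29 had a start site in the promoter table (Epas1 and Ndrg1 did not match), with 42 start sites in all, and 33 of them (78.6%) held at least 1 core, against 38.6% of all 32851 start sites. At least 2 places were found in 45.2% of these 42, against 13.5% of all. The members were listed as hypoxia response and glycolysis genes, with many HIF targets among them. Their high shares were thus built into the list and are not a result of these samples. Among the genes highest in vehicle sample 3, 14 of 19 start sites (73.7%, from 15 genes) held a core and 11 (57.9%) held at least 2 places. Among the other measured genes these counts were 19 (82.6%) and 8 (34.8%) of 23 start sites, from 14 genes. Genes with several start sites count more than once, so these shares do not compare the 2 sets gene by gene. By gene, 27 of all 29 held a core at 1 or more start sites. Base composition was not matched in these shares, and several start sites of 1 gene overlap. A core is only a string of letters here, and binding of HIF was not measured.

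The genes of glucose uptake and glycolysis differed in how much they varied. The glucose transporter gene Slc2a1 (GLUT1) had 1096, 972, 974 and 1068 in SKI-606 samples and 1168, 808, 2314 and 1100.0 in vehicle samples. Its SKI-606 samples were nearly equal, and of the vehicle samples only sample 2 lay below them. The log2 fold change was -0.28 ± 0.28, and 0.02 without vehicle sample 3. Hk2, the inducible hexokinase, had 153, 172, 64.2 and 185 in SKI-606 samples and 121, 106, 328 and 134 in vehicle samples, with SKI-606 sample 3 lowest and vehicle sample 3 highest, and was at -0.19 ± 0.38. Hk1, the hexokinase of most tissues, was at -0.16 ± 0.23.

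Of the phosphofructokinase genes, which encode the committed step of glycolysis, Pfkl (liver form) was at 0.03 ± 0.16, Pfkm (muscle form) at -0.03 ± 0.21 and Pfkp (platelet form) at 0.04 ± 0.26. Pfkp had 378, 551, 328 and 429 in SKI-606 samples and 435, 257, 604 and 386 in vehicle samples, which overlapped throughout. Pfkfb3, which makes the activator of that step, was at 0.32 ± 0.30 and reached an unadjusted p of 0.0497 in limma, at 0.57, without vehicle sample 3.

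In the lower part of the pathway, the phosphoglycerate kinase gene Pgk1 had 2078, 2213, 1598 and 2172 in SKI-606 samples and 1922, 1812, 4451 and 2084 in vehicle samples. All but vehicle sample 3 lay in 1 narrow range, and the log2 fold change of -0.25 ± 0.28 was 0.05 without it. The aldolase genes Aldoa and Aldoc were at 0.01 ± 0.15 and 0.03 ± 0.20, the triosephosphate isomerase gene Tpi1 at -0.19 ± 0.16 and the phosphoglycerate mutase gene Pgam1 at -0.03 ± 0.18. Over all 8 samples, the highest value of Aldoa was 1.36 times its lowest, that of Pfkl 1.47 times and that of Tpi1 1.48 times. This ratio was 4.28 for Hk2, 2.83 for Slc2a1, 2.77 for Pgk1 and 2.59 for Eno2, while for Ankrd37 it was 6.96, for Ndrg1 5.97 and for Egln3 5.91, all on signal + 16. As a group, the signalling and survival targets had a median within-group SD of 0.78 on the log2 scale and the genes of glucose uptake and glycolysis one of 0.35, against 0.31 over all genes. Brightness was not matched, as 7357 of all 18193 genes but 0 members were below 50 in all samples. Because this scale understates differences of dim genes, the value over all genes is not an equal baseline.

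Eno2, the neuronal form of enolase and a HIF target in tumours, was dim. It had 52, 26.8, 15.5 and 38 in SKI-606 samples and 21.6, 10.2, 19.6 and 13.4 in vehicle samples. SKI-606 samples 1, 2 and 4 lay above all vehicle samples, and sample 3 within their range. The log2 fold change was 0.57 ± 0.24, with an unadjusted p of 0.0415 and an adjusted p of 0.584 in limma. Without the 3 keratin-high samples it was 0.26, and leaving out vehicle sample 2 or 4 or SKI-606 sample 1, 2 or 4 gave 0.39 to 0.61, with an unadjusted p of 0.0514 to 0.115 in limma.

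At the end of the pathway, lactate dehydrogenase is built from subunits of Ldha, the muscle-type subunit that favours making lactate, and Ldhb, the heart-type subunit that favours using it. Of this pair Ldha is the HIF target. Ldhb had signals of 768, 992, 1201 and 894 in SKI-606 samples and 1417, 1526, 1199.5 and 1334 in vehicle samples on its brightest probe set. The groups met only at SKI-606 sample 3 and vehicle sample 3, which were nearly equal. Means were 964 ± 183 in SKI-606 and 1369 ± 138 in vehicle samples (SD, n = 4 each), and the log2 fold change was -0.51 ± 0.17, with an unadjusted p of 0.0118 and an adjusted p of 0.558 in limma. The 4 probe sets of Ldhb gave -0.53 to -0.51, 4 of 4 had an unadjusted p under 0.05, and the groups did not overlap in 2 of them. These probe sets read the same RNA and are not separate replicates. Leaving out each sample in turn gave -0.62 to -0.41, and without the 3 keratin-high samples it was -0.38. The deposited ratios, taken as log2, gave -0.29, with an unadjusted p of 0.369 in limma.

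Ldha had 7034, 8278, 6484 and 5599.5 in SKI-606 samples and 7491, 5739, 6656 and 7629 in vehicle samples. The groups overlapped throughout, and the log2 fold change was -0.01 ± 0.17, with a 95% confidence interval of -0.38 to 0.36. Vehicle sample 3 was not high for Ldha. Beside the Ldhb result, 11 of 11 proliferation genes lay below 0, where 47.0% of all genes lay above 0. Of these, 7 were lower at an unadjusted p under 0.05 in limma, against 4.32% of all genes. Their summed signals were 2241 to 6161 in SKI-606 samples and 5147 to 6479 in vehicle samples, with none at 0 in all samples. SKI-606 samples 1 and 4 had the lowest means over the proliferation genes, 7.47 and 7.36, and the lowest Ldhb signals on its brightest probe set. On another Ldhb probe set SKI-606 sample 2 was lowest, at 833, with samples 1 and 4 at 892 and 857. The part of proliferating cells in the Ldhb result was not tested.

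**Figure D4:**
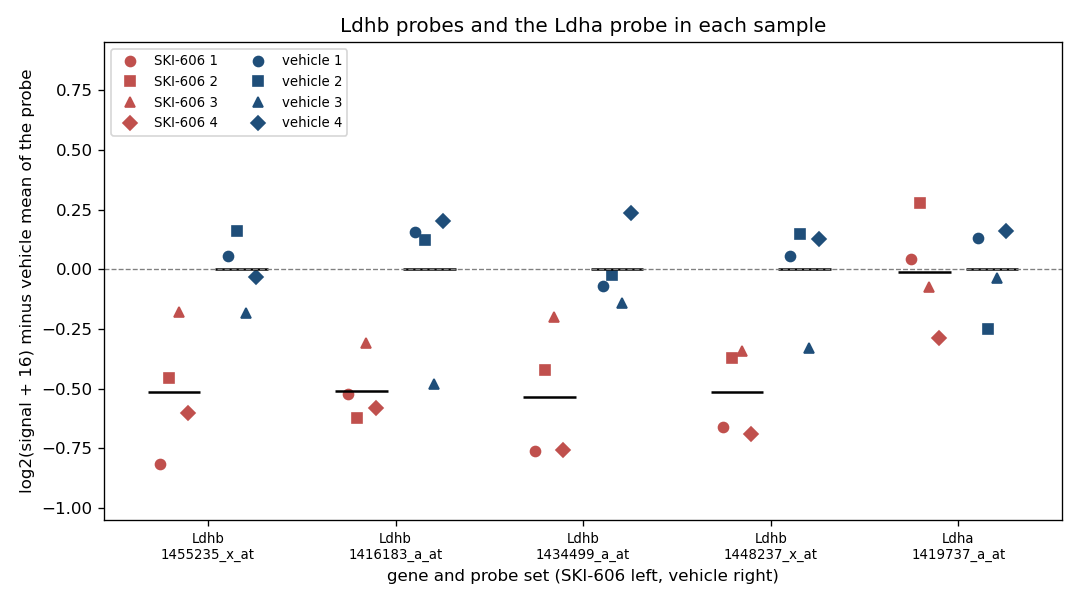
Log2(signal + 16) of the 4 Ldhb probe sets and the Ldha probe set in each sample, each minus its own vehicle mean, with SKI-606 (red) left and vehicle (blue) right of each pair and bars at the group means. The SKI-606 means of Ldhb lie between -0.53 and -0.51 on all 4 probe sets and that of Ldha at -0.01.

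The windows before the start sites of this pair are shown for comparison of the HIF target with its partner, marked in the same way. The Ldha window is that of its upstream start site.
Ldha (chr7:46845554-46845803, plus strand): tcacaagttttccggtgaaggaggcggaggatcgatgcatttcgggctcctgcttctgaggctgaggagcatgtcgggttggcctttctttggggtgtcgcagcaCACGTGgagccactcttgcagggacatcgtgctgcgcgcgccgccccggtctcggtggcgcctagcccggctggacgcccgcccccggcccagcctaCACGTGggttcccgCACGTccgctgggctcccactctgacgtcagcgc
Ldhb (chr6:142507958-142508207, minus strand): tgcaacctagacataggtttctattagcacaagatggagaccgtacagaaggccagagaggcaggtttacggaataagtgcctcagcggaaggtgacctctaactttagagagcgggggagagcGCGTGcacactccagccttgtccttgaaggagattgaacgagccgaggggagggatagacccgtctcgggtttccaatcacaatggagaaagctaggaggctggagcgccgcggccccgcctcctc

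This Ldha window had cores at 3 places, 2 of them a CACGTG. The window of the other Ldha start site (chr7:46846832-46847081) had 1, and so had that of Ldhb. A CACGTG occurs in 6.02% of all start-site windows, and 4.65% of them hold cores at 3 or more places.

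Pdk1, which encodes the kinase that shuts off pyruvate dehydrogenase and so keeps pyruvate out of the mitochondria, had 66.5, 61.4, 54.4 and 55 in SKI-606 samples and 97, 66.8, 170.2 and 65.1 in vehicle samples. The SKI-606 samples were close together, and vehicle samples 1 and 3 lay well above them, with samples 2 and 4 at their upper edge. The log2 fold change was -0.54 ± 0.25, with an unadjusted p of 0.0611 in limma, and the other 3 probe sets lay between -0.56 and -0.13. Without vehicle sample 3 it was -0.28, without the 3 keratin-high samples -0.31, and without vehicle sample 2 or 4 it was -0.67 or -0.68, with an unadjusted p of 0.0339 or 0.0294 in limma. The lactate exporter gene Slc16a3 (MCT4) had the widest range of the 31 genes, with 283, 32.4, 23 and 293 in SKI-606 samples and 50.6, 26.1, 300.4 and 27.4 in vehicle samples. The 3 high values belong to the 3 samples of high squamous and hair keratin signal, and the other 5 samples had at most 50.6. The fold change of 0.55 ± 0.85 was 1.21 without vehicle sample 3 and -0.19 without all 3 of these samples. The same 3 samples had the highest mean log2 values over 8 neutrophil genes, 7.59, 8.12 and 6.37, against at most 5.66 in the others. In vehicle sample 3, S100a8, S100a9, Mmp9 and the dim Ngp, at 3784, 179.5, 132 and 43.25, were above the other vehicle samples. Csf3r, Cxcr2 and Camp, at 6.25, 3.62 and 1.12, lay within the range of the other vehicle samples. Clec4d, at 28.6, was close to vehicle sample 1 at 28.5. Neutrophil genes had summed signals of 674 to 10836 in SKI-606 samples and 806 to 4178 in vehicle samples. Of these genes, 7 of 8 lay above 0, against 47.0% of all genes. None was at 0 in all samples, and Cxcr2, Ngp and Camp were below 50 throughout. The squamous keratin genes had summed signals of 670 to 23212 in SKI-606 samples and 822 to 14247 in vehicle samples. Of these, 10 of 14 lay above 0, against 47.0% of all genes, with 0 at an unadjusted p under 0.05 in limma and none at 0 in all samples. The part of these cells in the Slc16a3 signals was not tested.

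A list of 76 further genes of oxygen sensing and glucose use, of which 65 were measured, had a median log2 fold change of -0.07. In it, 28 genes lay above 0 and 37 below, where 47.0% of all genes were above 0. At an unadjusted p under 0.05 in limma, 4 were higher (6.15% of 65, against 6.09% of all genes) and 4 lower (6.15%, against 4.32%), and 0 passed an adjusted p under 0.05. The lower genes were Siah2, a ubiquitin ligase that degrades Egln proteins, at -0.64 ± 0.16, the HIF subunit gene Hif3a at -0.49 ± 0.16, the transferrin receptor gene Tfrc at -1.13 ± 0.38, and the monocarboxylate transporter gene Slc16a7 at -0.56 ± 0.22. Siah2 had 84.5, 99.5, 112 and 73.2 in SKI-606 samples and 159, 143, 172 and 135 in vehicle samples, and its groups did not overlap. Higher genes were the lactate and pyruvate transporter gene Slc16a1 (MCT1) at 0.60 ± 0.20, the membrane-binding protein gene Anxa2 at 0.61 ± 0.22, the glucose transporter gene Slc2a3 at 0.66 ± 0.28, and the VEGF receptor gene Flt1 at 0.51 ± 0.22, of which Slc2a3 and Flt1 were dim. Anxa2 had 6747, 4222, 3417 and 6229 in SKI-606 samples and 3127, 3398, 3283 and 3226 in vehicle samples, which did not overlap, with SKI-606 samples 1 and 4 far above the rest. Counts for this list also moved with single samples. The number higher was 9 without SKI-606 sample 3, 7 without SKI-606 sample 2, 2 without vehicle sample 2 or 3 and 1 without SKI-606 sample 1 or 4, and the number lower was 7 without SKI-606 sample 2. Without the 3 keratin-high samples it was 0 higher and 1 lower.

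Vehicle sample 3 was the highest in 18 of these 65 genes (27.7%), against 14.5% of all genes. Among them, chosen after their values were seen, the mitochondrial kinase gene Ak4 had 50.9, 46.4, 46.6 and 65.6 in SKI-606 samples and 70.1, 51.6, 359 and 72.1 in vehicle samples. The hypoxia-induced mitochondrial gene Higd1a had 228, 303, 244 and 242 in SKI-606 samples and 254, 214, 907 and 429.8 in vehicle samples. Muscle isoforms of glycolytic enzymes followed another set of samples. The muscle enolase gene Eno3 had 319, 738, 44.5 and 55 in SKI-606 samples and 1098, 40.5, 118 and 129 in vehicle samples. Its 3 highest samples, vehicle sample 1 and SKI-606 samples 1 and 2, were also the highest over 16 skeletal muscle genes, with mean log2 values of 9.75, 8.30 and 9.30 against at most 6.67 elsewhere. Those muscle genes had summed signals of 219 to 19261 in SKI-606 samples and 261 to 26931 in vehicle samples. Of these, 14 of 16 lay above 0, against 47.0% of all genes, with 0 at an unadjusted p under 0.05 in limma and none at 0 in all samples. The part of muscle tissue in Eno3 was not tested. Among 7 genes of gluconeogenesis 6 lay above 0, against 47.0% of all genes, with 0 at an unadjusted p under 0.05 in limma in either direction.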

How the data were processed

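Mouse mammary tumour RNA from 4 SKI-606 and 4 vehicle samples, grouped by their titles, was read on Affymetrix arrays, labelled as the maker recommends, per the labels' protocols. What the authors deposited are linear ratios. Software and normalization: not given in the sources used here. In 58.08% of 45101 probe sets the median ratio over the arrays was 1, and in the rest values were multiples of 1 step per array, as dividing signals by the array median and then by the probe median gives, with a constant divisor for dim probe sets. Whole-number signals that give these ratios were recovered, and gave back 100.0% of probe sets within a relative 0.0001. On 5000 simulated probe sets 99.86% were recovered exactly. Recovered array medians were 15 to 16 in SKI-606 and 15 to 23 in vehicle samples. This replaces the planned use of log2 values.

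Signals of 45037 probe sets (64 controls left out) were quantile normalized, 16 was added and log2 taken. limma 3.58.1 (R 4.3.3; lmFit, eBayes) gave fold changes, with Benjamini-Hochberg adjustment over all probe sets and a threshold of 0.05. The script was also tested on simulated data. Gene names come from the platform annotation: 34945 probe sets had 1 symbol, 932 several and 9160 are unnamed here. A gene is represented by its brightest probe set. All members are named. Every sample is shown for the regulators and best-known targets and for members with an unadjusted p under 0.05 or without overlap; Adm, Ankrd37 and Slc16a3 were added after their values were seen. Further-list genes are named by an unadjusted p under 0.05. The members and lists were chosen with earlier results of these data known. Start-site sequences are from RefSeq (GRCm38.p6). The alternatives were another pseudocount, no quantile normalization, the deposited ratios, a filter on dim probe sets, array weights, the replicate number as a block, the mean of all probe sets, and samples left out.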

Additional observations from a re-analysis of the deposited data

Results flagged for a closer look

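Of 62 groups of 4 samples (31 genes, SKI-606 and vehicle), 3 held a sample so far from its nearest neighbour that the distance, as a share of the group's range, passed Dixon's critical value for 4 samples. Chance alone gives about 1 in 20 such groups, and over all genes 6.66% of SKI-606 and 8.1% of vehicle groups had one, and 3 of 62 is below both shares. Bnip3 was high in vehicle sample 3 at 521, with a share of the range of 0.918. Pgk1 was high in the same sample at 4451, with a share of 0.845. Car9 was low in vehicle sample 1 at 44.4, with a share of 0.834.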

How the results depend on the processing

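All settings tried gave 0 probe sets and 0 members at an adjusted p under 0.05. The number of members higher and lower at an unadjusted p under 0.05 in limma, 2 and 2, became 1 and 0 with the deposited ratios as log2 values and 1 and 1 with a pseudocount of 64. It was 1 higher without quantile normalization or with a minimum mean signal of 50, 1 lower with array weights or the mean of all probe sets, and 0 and 0 without the 3 keratin-high samples. Leaving out each sample gave 0 to 4 higher and 1 to 4 lower. For the further list, 4 higher and 4 lower became 2 higher with a pseudocount of 64, without quantile normalization or with the signal filter, 1 higher with the mean of all probe sets, 2 lower on the ratios, and 0 higher and 1 lower without the 3 samples. Leaving out each sample gave 1 to 9 higher and 3 to 7 lower. The median of that list was 0.16 on the ratios, and the members' median was 0.13 there. On the ratios the median of all probe sets was 0.10 in place of -0.02, since that scale divides by array medians, which were 15, 15, 16 and 15 in SKI-606 arrays and 15, 17, 23 and 18 in vehicle arrays.

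Same-numbered samples did not deviate together: correlations were -0.151 to 0.108, and 0 of 8 samples matched their own number best. With the replicate block the members' counts were 2 and 2, and the further list had 7 lower in place of 4. Over 17 alternatives and 31 genes, 4 of 526 fold changes moved by more than 1 SD between replicates. These were Eno2 (1.09) and Ldhb (-0.29) on the deposited ratios, and Aldoa and Ldha without quantile normalization. This rule is wide, and a turned sign can pass it, as for Vegfa at 0.26 without vehicle sample 3. The sign of Epas1, Egln3, Eno2, Ldhb and Pdk1 was the same in every alternative that tested them. The same held for Hif1a, Ddit4, P4ha1, P4ha2, Pfkfb3 and Tpi1. All alternatives reuse the same 8 samples, so a stable sign is no independent support. Without vehicle sample 3 the sign turned in 10 members, among them Vegfa, Adm, Ankrd37, Slc2a1 and Pgk1. Dim probe sets near the pseudocount, such as Eno2, are limited by signal over background.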
